A study of Mus musculus with 2 samples.

Results

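The genes described here are 9 enzymes of glycolysis and the glucose transporter gene Slc2a1, 10 genes of the 55487 named gene records in the files. They were taken by symbol (Slc2a1, Hk1, Hk2, Pfkl, Pfkp, Aldoa, Gapdh, Pgk1, Pkm and Ldha), and all 10 were found. The RNA came from LPC-HRas, mouse liver tumour cells that are labelled as hepatocellular carcinoma cells. One group carried a lentiviral hairpin against RFP (shRFP), the control, and the other a lentiviral hairpin against Etv4 (shETV4). Both groups share the LPC-HRas line and infection with a hairpin lentivirus. Each group is 1 library. No difference below can be set against a replicate, none was tested, and every statement describes these 2 libraries. Not given in the sources used here are the hairpin sequence, the time after infection and the origin of the line beyond its name.

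Glycolysis turns glucose into pyruvate in the cytosol. Cells take glucose up through facilitative transporters, trap it by phosphorylation with hexokinase, commit it to the pathway at phosphofructokinase, and recover ATP and NADH in the lower part of the pathway. Lactate dehydrogenase then turns pyruvate into lactate, which regenerates the NAD needed at the Gapdh step. Adult hepatocytes rely on liver isozymes such as Pklr and on the transporter gene Slc2a2, whereas proliferating and tumour cells mostly use Slc2a1, Hk2, Aldoa, Pkm and Ldha. MYC, RAS signalling and the hypoxia factor HIF are textbook regulators of these genes.

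None of the 10 genes differed 2-fold between the libraries. Differences are given as log2(TPM + 1) in shETV4 minus the same in shRFP. TPM is a transcript level per length, scaled to the total of its library, and it keeps no record of sequencing depth. Evaluated genes are those that reached 1 TPM in either library, and a call of higher or lower needed a 2-fold difference on that scale. All 10 genes were evaluated, 0 were called higher and 0 lower, and 0 were past 1.5-fold. Over all 12968 evaluated genes, 3.39% were called higher, 7.06% lower and 10.4% in either direction, and at 1.5-fold 28.6% were past it. The balance of 439 higher and 916 lower genes depended on the scale: it was 518 and 300 after an adjustment for GC content, and 537 and 656 on a trimmed-mean scale, both described below. Among the 4838 genes that reached 30 TPM in either library, as every one of the 10 did, 6.82% were called. The median difference of the 10 genes was 0.06, against -0.10 over all evaluated genes and -0.03 over the genes at 30 TPM or more. Their median absolute difference was 0.09, against 0.34 and 0.26 in the same gene sets.

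The libraries themselves held 12456 (shRFP) and 12281 (shETV4) named genes at 1 TPM or more. Etv4, the target of the hairpin, was at 73.2 and 16.2 TPM in shRFP and shETV4, 4.52-fold lower in the latter. Of 12 hepatocyte markers 2 were evaluated. Apoa2 was at 2.61 and 2.93 TPM, and the transferrin gene Trf was called higher, at 27.5 and 127 TPM. The remaining markers stayed below 1 TPM in both libraries, with Alb listed at 0 in both. Of 10 progenitor, biliary and fetal liver markers 6 were evaluated, with a summed level of 775 and 955 TPM, most of it from Spp1 (423 and 476 TPM) and Dlk1 (205 and 314 TPM). Of the keratin genes Krt19 was at 27.5 and 36.25 TPM, Krt18 at 49.1 and 30.9 TPM, the only one of the 6 below 0, and Krt8 below 1 TPM in both, as were Epcam, Afp and Prom1. Leukocyte, endothelial and erythroid markers summed to at most 2.56, 1.49 and 1.12 TPM in either library, and Cd68 was the only one of these markers to reach 1 TPM. Stellate cell and fibroblast markers summed to 635 and 857 TPM, most of it from Col3a1 (367.5 and 538 TPM) and Col1a1 (200.4 and 229 TPM). Pdgfrb was at 59.5 and 77.2 TPM, Dcn at 6.81 and 9.76 TPM and Col1a2 at 1.24 and 1.55 TPM. Lrat was listed at 0, and Lum and Des reached at most 0.05 and 0.64 TPM. The 5 of these 8 that were evaluated all lay above 0 with a median of 0.37, none called; after the GC adjustment described below Dcn was past 2-fold (1.11). In bulk RNA, fewer cells of a type and less RNA per cell cannot be told apart.

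**Figure D1:**
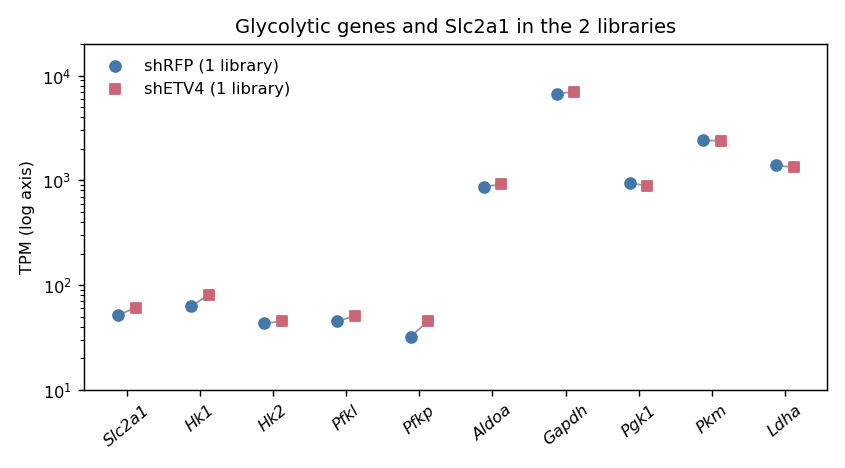
TPM on a log axis of the glucose transporter gene and the 9 enzyme genes, in pathway order, with a circle for the shRFP library and a square for the shETV4 library joined by a line. The first 5 genes lie between 32.1 and 80.3 TPM and the last 5 between 870 and 6954 TPM, and in each gene the pair of symbols lies close together.

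Regulatory sequence upstream of 3 genes is shown first, because Pfkp had the highest difference of the 10, Pgk1 the lowest, and Ldha is a textbook target of HIF and MYC. The stretches are from RefSeq promoter windows of GRCm38.p6, 5′ to 3′ on the strand of the gene. Each starts 250 bases before the annotated start, runs for 240 bases and overlaps no annotated exon. Capitals mark matches on either strand to AGGAAG or CGGAAG, core letters bound by ETS factors such as Etv4, to ACGTG or GCGTG, core letters bound by HIF, and to CACGTG, the E-box of MYC, which contains ACGTG.
Pfkp: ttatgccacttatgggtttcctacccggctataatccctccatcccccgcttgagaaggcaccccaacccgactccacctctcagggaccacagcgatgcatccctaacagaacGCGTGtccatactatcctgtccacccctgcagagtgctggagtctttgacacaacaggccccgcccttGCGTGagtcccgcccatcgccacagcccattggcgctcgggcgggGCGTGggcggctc
Pgk1: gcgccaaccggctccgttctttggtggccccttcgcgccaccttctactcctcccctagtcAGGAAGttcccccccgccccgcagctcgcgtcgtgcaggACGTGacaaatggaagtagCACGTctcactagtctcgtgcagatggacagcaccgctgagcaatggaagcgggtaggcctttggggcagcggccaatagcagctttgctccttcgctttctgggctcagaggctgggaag
Ldha: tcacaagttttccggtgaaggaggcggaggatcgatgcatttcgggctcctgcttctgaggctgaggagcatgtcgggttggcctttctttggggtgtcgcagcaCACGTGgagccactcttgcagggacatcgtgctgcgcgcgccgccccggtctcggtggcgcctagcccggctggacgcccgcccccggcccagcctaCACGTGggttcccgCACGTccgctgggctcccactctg

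The Pfkp stretch is chr13:6648782-6649021 on the minus strand and the Pgk1 stretch chrX:106186850-106187089 on the plus strand. The Ldha stretch is chr7:46845554-46845793 on the plus strand. Ldha has another window, not shown, at chr7:46846832-46847081, which also overlaps no annotated exon. That window holds 1 match to GCGTG and 0 to ACGTG or CACGTG, so the stretch shown does not stand for every Ldha start. All 10 genes matched an entry of the RefSeq windows, which gave 15 annotated starts, since Hk1, Aldoa, Pkm and Ldha have several. In the 250 bases before the start, AGGAAG or CGGAAG was found in 4 of the 15 windows (Hk1, Aldoa, Pgk1 and Pkm), against 39.2% of all 32851 windows. Of these 4 windows only that of Pgk1 overlapped no annotated exon. Annotated exons covered 186 of the 250 bases in the Hk1 window, 193 in the Aldoa window and 208 in the Pkm window. ACGTG or GCGTG was found in 12 of the 15 windows, against 38.6% of all windows. Each of the 10 genes had at least 1 such window, a count by gene that has no counterpart among all windows. Windows of a gene can overlap, as for Aldoa (126799179-126799428 and 126799255-126799504), and several overlap annotated exons. All windows were used without matching for base composition. CACGTG was found in 1 of the 15, the Ldha window shown, against 6.02% of all windows. These are matches of letters only. The genes with ETS letters in a window had differences of 0.35 (Hk1), 0.07 (Aldoa), -0.12 (Pgk1) and -0.01 (Pkm), while those of the other 6 genes ran from -0.06 (Ldha) to 0.48 (Pfkp).

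Slc2a1 encodes GLUT1, the basal glucose transporter of most dividing cells. The gene spans chr4:119108711-119137983 on the plus strand of GRCm38. The shRFP library had 51.8 TPM and the shETV4 library 60.5 TPM, a ratio of 1.17 and a difference of 0.22. The shETV4 value was the higher, and 35.04% of evaluated genes had a smaller absolute difference. Slc2a1 made up 72.8% of the summed TPM of 11 Slc2a family genes with shRFP and 72.2% with shETV4. The family's next members were the transporter genes Slc2a6 at 5.90 and 8.06 TPM, Slc2a3 at 5.10 and 6.20 TPM and Slc2a8 at 5.09 and 7.36 TPM. Slc2a2, the hepatocyte transporter gene, was at 0.13 TPM with shRFP and was listed at 0 with shETV4. Slc2a4, the insulin-responsive transporter gene, was the only called gene of 12 other hexose transporters, of which 5 were evaluated, at 1.64 and 0.05 TPM. Its difference of -1.33 rests on a low control level and was -0.39 with a pseudocount of 5. Over all evaluated genes 10.4% were called in either direction.

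Hexokinases phosphorylate glucose on entry. Hk1, the widely expressed form, spans chr10:62268855-62379908 on the minus strand. It was at 63.0 TPM (shRFP) and 80.3 TPM (shETV4), a ratio of 1.27 and a difference of 0.35. Hk2, the inducible form typical of tumours and muscle, lies on chromosome 6 on the minus strand and was at 43.4 and 44.96 TPM, a ratio of 1.04 and a difference of 0.05. Both values of Hk1 were above both values of Hk2. Hk1 accounted for 58.9% of hexokinase TPM with shRFP and 63.8% with shETV4, and Hk2 for 40.5% and 35.7%. Of the remaining family members, Hkdc1 was at 0.54 and 0.53 TPM and Hk3 was listed at 0 in both libraries.

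Phosphofructokinase catalyses the committed step, and its subunits assemble as mixed tetramers. Pfkp, the platelet-type subunit gene at chr13:6579768-6648777 on the minus strand, had the largest difference of the 10 genes. The values were 32.1 TPM (shRFP) and 45.2 TPM (shETV4), a ratio of 1.41 and a difference of 0.48, still inside 1.5-fold. A smaller absolute difference was found in 63.7% of evaluated genes, so more than 1 gene in 3 differed by more. Exons of Pitrm1 cover 5.58% of its exonic bases. Pfkl, the liver-type subunit gene on chromosome 10, was at 45.3 and 50.9 TPM, a ratio of 1.12 and a difference of 0.16. The muscle-type gene Pfkm was at 49.9 and 56.1 TPM. All 3 subunits were thus present at similar levels, and the values with shETV4 were the higher in each. The shares of the step were 25.2% and 29.7% for Pfkp, 35.6% and 33.4% for Pfkl and 39.2% and 36.9% for Pfkm.

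**Figure D2:**
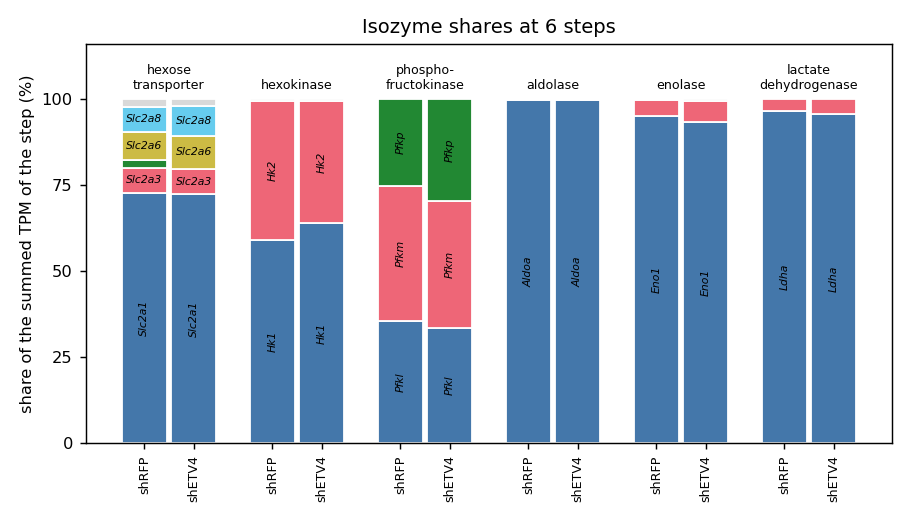
Share of the summed TPM of a step taken by each isozyme, as stacked bars for the shRFP and the shETV4 library at 6 steps; colours separate isozymes within a step, light grey is the rest and unlabelled segments are under 7%. Slc2a1, Aldoa, Eno1 and Ldha take most of their steps in both libraries, while hexokinase is divided between Hk1 and Hk2 and phosphofructokinase among 3 subunits.

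Aldolase splits the hexose into triose phosphates. Aldoa, the form of muscle and of most tumours, lies on chromosome 7 on the minus strand and was at 870 and 913 TPM in the libraries, a ratio of 1.049. It was 99.7% and 99.6% of aldolase TPM, with Aldoc at 2.23 and 3.85 TPM. A second record with the symbol Aldoa, with an identifier of its own, was at 1.49 and 1.61 TPM and was not used.

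Gapdh, the oxidising enzyme that yields NADH and a common reference gene, was the most abundant of the 10. It lies on chromosome 6 on the minus strand and was at 6735 TPM (shRFP) and 6954 TPM (shETV4), a ratio of 1.03 and a difference of 0.05. Among all named genes it had rank 5 with shRFP and rank 4 with shETV4. The mouse genome holds many processed pseudogenes of Gapdh, copies of its mRNA inserted elsewhere, and 186 annotated pseudogene records matched its transcripts at 90% identity or more. Of these, 19 reached 1 TPM in either library, and 15 of the 19 matched at 99% identity or more. Gm7336 was at 1180 and 1038 TPM and Gm10359, identical to Gapdh over its whole length, at 741 and 657 TPM. The pseudogene records summed to 2808 and 2594 TPM, a ratio of 0.924, on the other side of 1 from the Gapdh record.

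Added together, Gapdh and its pseudogene records came to 9543 and 9547 TPM, a ratio of 1.0004. The pseudogenes held 29.4% of that sum with shRFP and 27.2% with shETV4. No source used here says how reads that match several of these records were divided, so the level of Gapdh alone is uncertain. The other 4 genes with matching pseudogenes (4 for Aldoa, 4 for Pgk1, 9 for Pkm and 15 for Ldha) had none at 1 TPM, and those of Ldha summed to 0.73 TPM at most. Taken relative to the Gapdh record, the ratio of Pfkp was 1.36 and that of Pgk1 0.891; relative to Gapdh with its pseudogenes they were 1.41 and 0.920.

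**Figure D3:**
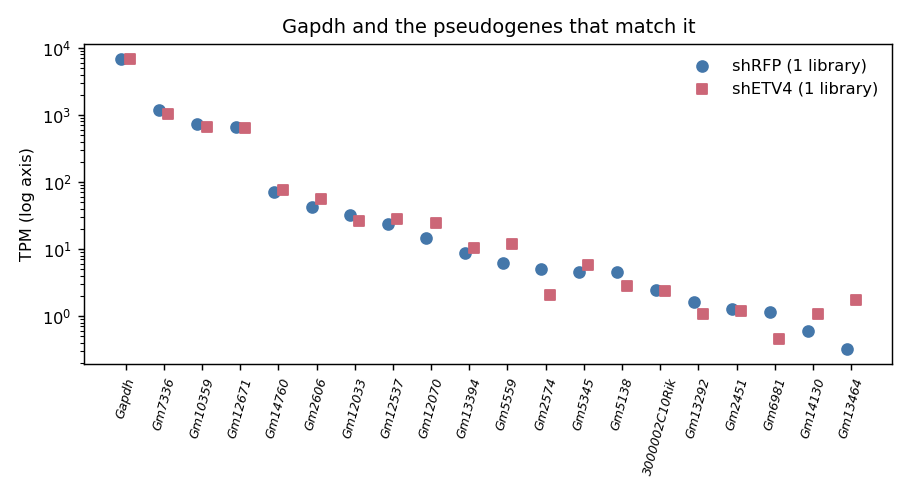
TPM on a log axis of Gapdh and of the 19 matching pseudogene records that reached 1 TPM in either library, with a circle for shRFP and a square for shETV4, ordered by the shRFP value. Gapdh stands at 6735 and 6954 TPM, and the leading pseudogene record, Gm7336, at 1180 and 1038 TPM.

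Pgk1, which makes the first ATP of the pathway, is on the X chromosome (plus strand) and had the lowest difference of the 10. It was at 952 and 876 TPM, a ratio of 0.920 and a difference of -0.12. Pkm, the pyruvate kinase gene whose spliced forms M1 and M2 are not separated in these files, lies on chromosome 9 on the plus strand and was at 2403 and 2390 TPM. Its ratio of 0.995 was the closest to 1 of all, and only 1.23% of evaluated genes had a smaller absolute difference. Exons of Gm49759 cover 15.3% of its exonic bases. Pklr, the liver and red cell pyruvate kinase gene, was listed at 0 in both libraries. Ldha, which favours lactate formation, lies on chromosome 7 on the plus strand and was at 1387 and 1331 TPM, a ratio of 0.960. Ldhb, the form that favours pyruvate, was at 52.3 and 60.95 TPM, so Ldha was 96.4% and 95.6% of lactate dehydrogenase TPM.

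The order of the 10 levels was nearly the same in both libraries. It ran Gapdh, Pkm, Ldha, then Pgk1 and Aldoa, which changed places, then Hk1, Slc2a1, Pfkl, and last Hk2 and Pfkp, which also changed places. With 1 library per group there is no spread by which to say which neighbours differ. The highest level was 210-fold the lowest with shRFP and 155-fold with shETV4. Together the 10 genes took 1.26% of all TPM with shRFP and 1.27% with shETV4, at 12583 and 12745.5 TPM, a ratio of 1.01.

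The genes of uptake and of the early steps lay slightly to one side. Slc2a1, Hk1, Hk2, Pfkl and Pfkp were above 0 in 5 of 5, with a median difference of 0.22, and their sum was 236 and 282 TPM, a ratio of 1.20. Aldoa, Gapdh, Pgk1, Pkm and Ldha were above 0 in 2 of 5, with a median of -0.01 and a ratio of the sums of 1.01. Over all evaluated genes 41.6% lay above 0. After the GC adjustment described below, the early group had a median of 0.11 with 4 of 5 above 0. The other group then had a median of -0.04 with 1 of 5 above 0. Summed by enzymatic step, with every isozyme included, the ratio was 1.18 for transport, 1.18 for hexokinase, 1.17 for glucose phosphate isomerase (Gpi1, at 215 and 252 TPM) and 1.20 for phosphofructokinase. From aldolase to lactate dehydrogenase the 8 steps ranged from 0.920 (phosphoglycerate kinase) to 1.051 (aldolase). This grouping was made after the values were seen, and the groups also differ in level, at 32.1 to 80.3 TPM and 870 to 6954 TPM. Beside it stands the median absolute difference of 0.34 over all evaluated genes.

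**Figure D4:**
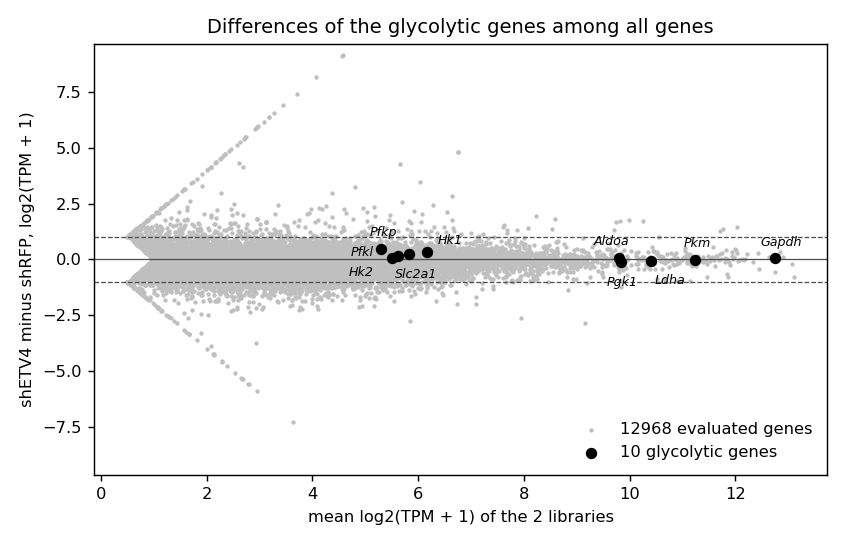
Difference between the libraries on the log2(TPM + 1) scale against the mean level, in grey for 12968 evaluated genes and in black for the 10 glycolytic genes; dashed lines mark 2-fold. The 10 genes lie between -0.12 (Pgk1) and 0.48 (Pfkp), inside both dashed lines.

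Base composition and scale shift these small values. The rank correlation of the difference with transcript GC content was 0.52 across 12947 evaluated genes, which share both libraries and are not independent. The 10 genes have a GC content of 48.7% (Pgk1) to 57.2% (Aldoa), with a median of 53.7% against 50.7% for all. After subtraction of the running median along GC content, their median difference was -0.0035, with 5 above and 5 below 0. Pfkp was then at 0.56 and Hk1 at 0.33, Pgk1 moved to 0.07, and Pkm was the lowest at -0.10. The trimmed mean of log ratios over the libraries lay at -0.13, and relative to it all 10 genes lay above 0, from 0.01 (Pgk1) to 0.61 (Pfkp). On each of these scales 0 of the 10 were called, against 6.32% of all genes after the GC adjustment. The direction of any gene other than Pfkp, Hk1, Slc2a1 and Pfkl therefore depended on the scale or the GC adjustment.

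No gene among the isozymes and remaining steps of glycolysis was past 2-fold. Of 20 genes 12 were evaluated and 0 were called, against 10.4% of all evaluated genes called in either direction. Of the 12, 9 lay above 0, and the median was 0.11. Tpi1, the triose phosphate isomerase gene, was at 781 and 814 TPM, and Pgam1, the main phosphoglycerate mutase gene, at 664 and 667 TPM. Eno1, the main enolase gene, was at 2051 and 1999 TPM, with the muscle form Eno3 at 101 and 132 TPM and the neuronal form Eno2 at 7.82 and 10.8 TPM. Bpgm, which makes bisphosphoglycerate, had the lowest value of the list, at 19.6 and 12.65 TPM and a difference of -0.59. Aldoc had the highest, 0.59. Adpgk, which phosphorylates glucose with ADP, was at 32.9 and 34.3 TPM, and Pgam2 at 1.05 and 0.96 TPM. Gapdhs, Pgk2 and Ldhc, the germ cell forms, were listed at 0 in both libraries.

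In the 14 connected lists, the isozymes included, 4 of 122 evaluated genes were called, all lower, against 7.06% called lower over all evaluated genes. After the GC adjustment 1 was past 2-fold on the higher side (Gfpt2, 1.35) and 1 on the lower side (Slc2a4, -1.48), against 6.32% of all genes in either direction. All 5 enzyme genes that set the level of the phosphofructokinase activator fructose 2,6-bisphosphate lay below 0 with a median of -0.25, none called. They ran from Pfkfb3 at 18.5 and 13.2 TPM (-0.46) to Pfkfb4 at 10.05 and 8.79 TPM (-0.17). After the GC adjustment Pfkfb1 and Pfkfb2 lay above 0, at 0.03 and 0.05, and the median was -0.28. Of 5 evaluated genes of lactate and pyruvate transport none was called, with a median of -0.24 that was 0.08 after the GC adjustment. Slc16a1, 1 of the lactate transporter genes, was at 40.4 and 28.3 TPM, a difference of -0.50 that was 0.11 after the GC adjustment. Its chaperone basigin (Bsg) was at 632 and 709 TPM. In the pyruvate dehydrogenase group 1 of 12 was called lower and the median was -0.33, or -0.07 after the GC adjustment. That gene was Dld, the shared dehydrogenase subunit of the complex, at 60.3 and 27.35 TPM, a difference of -1.11 that was -0.36 after the GC adjustment and -0.99 on the trimmed-mean scale. In the pentose phosphate pathway 1 of 8 was called lower, with a median of -0.0047. It was Rpe, an epimerase of the non-oxidative branch, at 11.2 and 3.02 TPM and a difference of -1.61, or -0.84 after the GC adjustment.

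The groups farther from glycolysis had no called gene apart from 1 oxygen-sensing factor. Over all evaluated genes 10.4% were called in either direction, so a count of 0 or 1 in lists this short says little about them. Of 4 evaluated gluconeogenesis genes the pyruvate carboxylase gene Pcx was the highest (0.35) and Slc37a4, a glucose phosphate transporter gene, the lowest (-0.80); Fbp1 and G6pc were listed at 0 in both libraries. Glycogen metabolism had 0 of 11 called and a median of -0.36, from the phosphorylase kinase subunit genes Phka1 (-0.93) to Phkg2 (0.52). The hexosamine pathway had 0 of 7 called and a median of -0.50, with Uap1 the lowest (-0.75) and Gfpt2, which makes glucosamine phosphate, the highest at 14.5 and 29.2 TPM (0.96). Gfpt2 was past 2-fold on the trimmed-mean scale (1.09), with the median ratio set to 1 (1.03) and after the GC adjustment. The glycerol phosphate and malate shuttles had 0 of 9 called and a median of -0.15, from Gpd2 (-0.46) to Got2 (0.10). The citric acid cycle had 0 of 16 called and a median of -0.09, from Sucla2 (-0.87) to Sdhb (0.10). The last 4 groups had medians below that of the 10 glycolytic genes. Their median GC content was lower as well, from 45.8% for the hexosamine pathway to 52.5% for the shuttles, and after the GC adjustment their medians ran from -0.06 to 0.02.

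Hif1a, the oxygen-regulated factor that drives many glycolytic genes, was called lower while those genes were not. It was at 58.95 and 24.96 TPM, 2.36-fold lower with shETV4, with a difference of -1.21. Its transcripts have a GC content of 41.3%, and after the GC adjustment its difference was -0.43, inside 2-fold. It was the 1 called gene of 8 evaluated HIF and oxygen-sensing genes, against 10.4% of all evaluated genes called in either direction. HIF-1α is regulated mostly as a protein, which these data do not measure. Of 16 evaluated hypoxia-induced genes outside glycolysis 0 were called and the median was 0.11, from the mitophagy gene Bnip3l (-0.45) to the lipid droplet gene Plin2 (0.71). The 4 evaluated genes of the glucose-sensing list lay above 0 with none called. They ran from Mlxip (0.02) to Txnip, an inhibitor of glucose uptake, at 33.0 and 53.55 TPM (0.68).

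**Figure D5:**
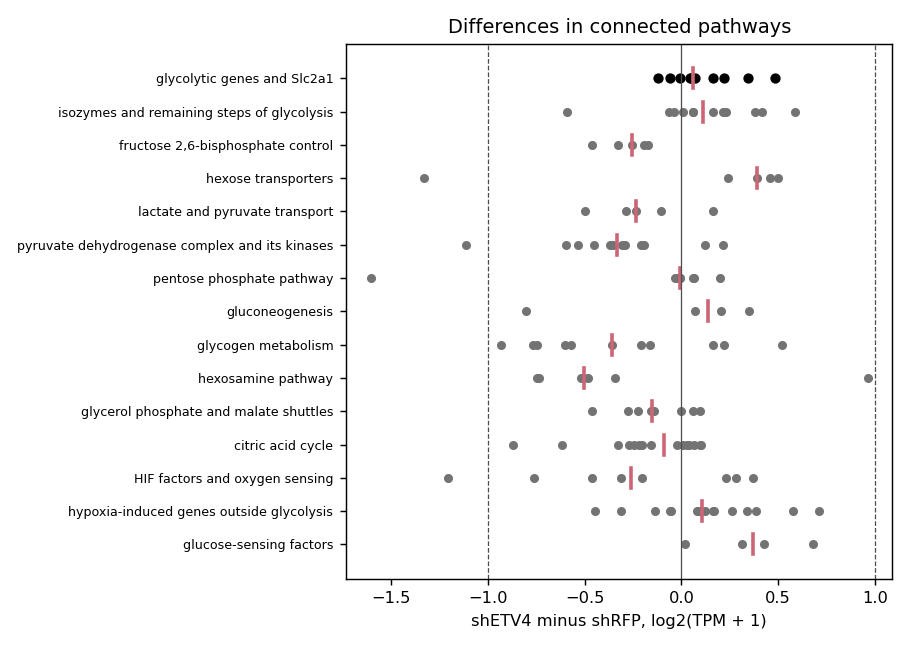
Difference between the libraries on the log2(TPM + 1) scale for the 10 glycolytic genes (black) and for the evaluated genes of 14 connected lists (grey); red bars are medians and dashed lines mark 2-fold. The points past 2-fold are Slc2a4, Dld, Rpe and Hif1a, all on the lower side.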

How the data were processed

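The authors deposited TPM, with a single value for a gene in each library; the headers name no unit, and TPM was read from the values. Each value column is headed by the hairpin's name followed by 2, and no label says whether that marks a replicate or a run. The submitters' processing notes list HISAT2, RSEM and GRCm38.p4 and no role or version. Not given in the sources used here are the annotation, the strand setting and any filter. Depth is unknown, so no interval or floor is given. The 153 records without a symbol were left out; they held 1.13% of TPM with shRFP and 2.67% with shETV4.

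GENCODE M21 on GRCm38 gave coordinates, exons and GC content for 99.4% of named records. Pseudogenes were matched to the 10 genes with BLAST+ 2.17.0 (at least 90% identity over 50% of the pseudogene and 300 bases). The GC adjustment subtracts the median over 50 bins; the trimmed mean drops 30% of the ratios and 5% of the mean levels from either end. Named were all 10 genes, the isozyme list (some of its genes are not reported here), the called genes of each other list or else its highest and lowest member, and the leading 2 pseudogenes. The genes and lists were chosen with earlier results of these data known. The steps were tested on simulated data. The tools were Python 3.11.15 with scipy 1.17.1, numpy 2.4.6, matplotlib 3.10.9 and pandas 2.3.3.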

Additional observations from a re-analysis of the deposited data

How the results depend on the processing

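No paired analysis was possible because there was 1 library per group, and for the same reason no replicate could be left out. None of the 10 genes was called under any of the 12 alternatives run, of which the rescaling without called genes and unnamed loci was chosen after seeing the data. Some of the 12 could not change this count. All 10 genes were above 30 TPM, so the changes of filter left them as they were, and a 3-fold cutoff can only remove calls. Their median difference ranged from -0.0035 (GC adjustment) to 0.19 (trimmed-mean scale), and was 0.12 as a mean. The ratio of their summed TPM ranged from 0.990 without Gapdh to 1.11 on the trimmed-mean scale. No single difference of the 10 genes moved by more than 1.5-fold. That margin is wider than any of the 10 differences, so it also passes changes of sign and does not show that directions held. Under the GC adjustment Aldoa went from 0.07 to -0.07 and Pgk1 from -0.12 to 0.07. Every gene but Pfkp, Hk1, Slc2a1 and Pfkl turned sign under at least 1 alternative. Of 14 list medians 4 turned sign: lactate and pyruvate transport (from -0.24 to 0.08) and glycogen metabolism (from -0.36 to 0.02) under the GC adjustment, the citric acid cycle (from -0.09) under it (0.02) and on the trimmed-mean scale (0.04), and the pentose phosphate pathway (-0.0047) on the trimmed-mean and median-ratio scales. The hexosamine median went from -0.50 to -0.01 under the GC adjustment, and that of the hexose transporters from 0.39 to 0.01 without the filter. Of the list counts, 103 stayed within 1.5 times and 23 did not. Many of these counts were 0 under the main settings and could not fall, so the tally does not show that they are stable. The background counts moved as well, and unlike the count of 0 among the 10 genes they could fall as well as rise. From 439 higher and 916 lower genes, the counts went to 674 and 1459 with a pseudocount of 0.1, to 167 and 267 with 5, to 1117 and 2591 at 1.5-fold, and to 162 and 162 at 3-fold. They were 118 and 212 among genes at 30 TPM or more, a set chosen after seeing the data. Higher genes numbered 252 at 5 TPM or more and 247 among protein-coding genes, with 690 and 736 lower. After the GC adjustment there were 518 higher and 300 lower. On the trimmed-mean scale there were 537 higher and 656 lower.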
